A study of Mus musculus with 2 samples.

Results

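The 8 MHC class II presentation genes H2-Aa, H2-Ab1, H2-Eb1, H2-DMa, H2-DMb1, H2-DMb2, Cd74 and Ciita were followed in myeloid cells of mouse mammary tumors, chosen by symbol from the 28692 genes listed in both count tables. Myeloid cells carrying GR-1, a surface epitope shared by Ly6C and Ly6G, were bead-isolated from 2 kinds of tumor of the 4T1 line, a triple-negative breast carcinoma. 4T1p is the parental line, which resists anti-PD1, and 4T1m is a polyclonal derivative made with the mutagen MNNG (1-methyl-3-nitro-1-nitrosoguanidine), which responds to it. Cells were implanted in the mammary fat pad of female BALB/c mice aged 8 to 10 weeks, and both groups received anti-PD1 antibody 2 times a week for up to 2 weeks, so no untreated tumor was compared. Each tumor type gave 1 library of 10x Genomics 3′ v3 chemistry, with the number of pooled animals not given in the sources used here. With 1 library per condition no difference was tested, and all intervals below are 95% intervals that cover counting error only (exact Poisson for levels, exact binomial for shares and ratios).

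MHC class II molecules carry peptides from the endosomal route to the cell surface, where CD4+ T cells read them. H2-Aa and H2-Ab1 encode the alpha and beta chains of I-A, and H2-Eb1 encodes the beta chain of I-E. Cd74 encodes the invariant chain, which fills the binding groove until the endosome is reached. H2-DMa pairs with the product of H2-DMb1 or H2-DMb2 to form H2-DM, which exchanges the remnant of the invariant chain for peptide. Ciita encodes the coactivator that switches these genes on and is itself inducible by interferon gamma in macrophages. Dendritic cells, B cells and activated macrophages are the known class II cells, and mature neutrophils are not usually counted among them.

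Class II promoters are known to hold an X box bound by RFX and, at a fixed distance, a Y box bound by NF-Y, on which the product of Ciita is recruited. RefSeq promoters of GRCm38.p6 were present for 5 of the 8 members, namely H2-Aa, H2-Eb1, H2-DMa, H2-DMb1 and H2-DMb2, and H2-Ab1, Cd74 and Ciita had no entry. These are reference sequences and not those of the BALB/c mice. The spacing was chosen after the promoters had been read, and was searched as AAC, 26 to 29 bases of any kind, then ATTGG. Of the 5 members, 4 held it on the sense strand, all but H2-DMa, and their other strand was not searched. Counted on either strand, 2.49% of 32851 promoters of 300 bases held it. ATTGG alone was present in 37.4% of them. The module is shown for the promoters of an I-A chain, an I-E chain and an H2-DM chain with AAC and ATTGG in capitals and only bases before the transcript start. H2-Aa lies at chr17:34287847-34287922 on the minus strand, H2-Eb1 at chr17:34305758-34305832 and H2-DMb2 at chr17:34145108-34145183, both on the plus strand.
H2-Aa: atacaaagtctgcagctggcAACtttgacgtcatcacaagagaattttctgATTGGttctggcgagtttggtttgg
H2-Eb1: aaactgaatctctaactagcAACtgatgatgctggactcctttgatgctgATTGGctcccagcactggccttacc
H2-DMb2: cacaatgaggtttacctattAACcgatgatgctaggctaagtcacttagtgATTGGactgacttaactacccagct
The spacer was 28 bases in H2-Aa, H2-DMb1 and H2-DMb2 and 27 in H2-Eb1, and ATTGG ended 43 bases before the start of H2-Aa, 54 before that of H2-Eb1, 56 before that of H2-DMb1 and 85 before that of H2-DMb2. The H2-DMb1 window overlaps an annotated exon, whose gene was not recorded, and is not shown. These starts are those of the RefSeq promoters. In GENCODE, H2-DMb1 begins at 34153072 and H2-DMb2 at 34143307, both before their windows. A match of letters is a description of these windows and says nothing of factor binding in the cells sequenced. Along chromosome 17 the 6 class II chain genes lie between 34119541 and 34316674, in the order H2-DMa, H2-DMb2, H2-DMb1, H2-Ab1, H2-Aa and H2-Eb1, whereas Ciita lies on chromosome 16.

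The library labelled 4T1p held 1641 barcodes with a median of 2066 UMIs (unique molecular identifiers, 1 per captured transcript), and the library labelled 4T1m held 2749 with a median of 2763. Each of these medians is the one that the study's methods give for the other tumor, so the libraries are named throughout as the files label them and every direction rests on those labels. No barcode was shared. Limits on detected genes, UMIs and mitochondrial share left 1128 and 2092 cells in 13 clusters, built without the 8 members. By marker lists, 5 clusters were macrophage-like (754 cells labelled 4T1p, 813 labelled 4T1m), 4 were neutrophil-like (251 and 1022), 1 was B cell-like (1 and 33) and 1 was T cell-like (7 and 23). Cluster 10 (17 and 34 cells, led by Igfbp7, Sparc, Krt8 and Krt18) took none of these names. Cluster 6 (98 and 167 cells, led by Fabp5, Mmp12 and Arg1) scored highest for the macrophage markers but was left unnamed. Its median depth was 0.33 of that of the library labelled 4T1m, and no macrophage marker was among its 10 leading genes. Cluster 0, named macrophage-like, was nearly as shallow, with a median of 1017 UMIs against 991. The largest group of macrophage-like cells was cluster 0 in the library labelled 4T1p (367 of 754 cells) and cluster 2 in the library labelled 4T1m (321 of 813 cells).

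Class II UMIs were abundant in macrophage-like cells and differed several-fold between macrophage states. A level here is a gene's UMIs summed over a group of cells, per 1e6 UMIs of that group (CPM), and is not divided by transcript length since a 3′ library tags each captured transcript at its end. The 8 members together had 40225 CPM (interval 39742 to 40712) in cluster 0 of the library labelled 4T1p and 24374 CPM (23847 to 24909) in that of the library labelled 4T1m. Cluster 0, led by Aif1 and C1qb, was shallow, with a median of 1017 UMIs in both libraries, and only 20.6% of its cells had a UMI of the leukocyte gene Ptprc. H2-Eb1 was among its 10 leading genes, although no member was used for clustering. Cluster 5, led by Cx3cr1, Cxcl9, C4b and Siglec1, had 39177 CPM (38909 to 39446) and 25115 CPM (24875 to 25356) at a median of 12649 UMIs. These were the highest class II levels among macrophage-like clusters in both libraries, and the intervals of clusters 0 and 5 overlapped in the library labelled 4T1m but not in the other.

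Proliferating cluster 7, led by Birc5, Top2a and Stmn1, had 22710 CPM (22176 to 23255) in the library labelled 4T1p and 9614 CPM (9302 to 9934) in the library labelled 4T1m. Cluster 2, which held markers of both the Mmp12 and Il7r state and the Il6 and Thbs1 state, had 18294 CPM (18049 to 18542) and 10780 CPM (10679 to 10882). In these levels, summed over cells, the order of clusters 7 and 2 thus differed between the libraries. By the median of cells thinned to the same number of UMIs, cluster 7 lay above cluster 2 in both libraries. The median member UMIs per thinned cell were 19.5 in cluster 7 and 12 in cluster 2 in the library labelled 4T1p. In the library labelled 4T1m they were 8 and 6. Cluster 9, led by the resident macrophage genes Cd163, Lyve1 and Cbr2, had the lowest level of the macrophage-like clusters in both libraries, at 10530 CPM (10041 to 11037) and 5485 CPM (5287 to 5689). Median depth was 1017 UMIs in cluster 0 and 12649 in cluster 5. It was 1490.5 in cluster 7, 11535 in cluster 2 and 7088 in cluster 9. The part of depth in these levels was not tested.

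**Figure D1:**
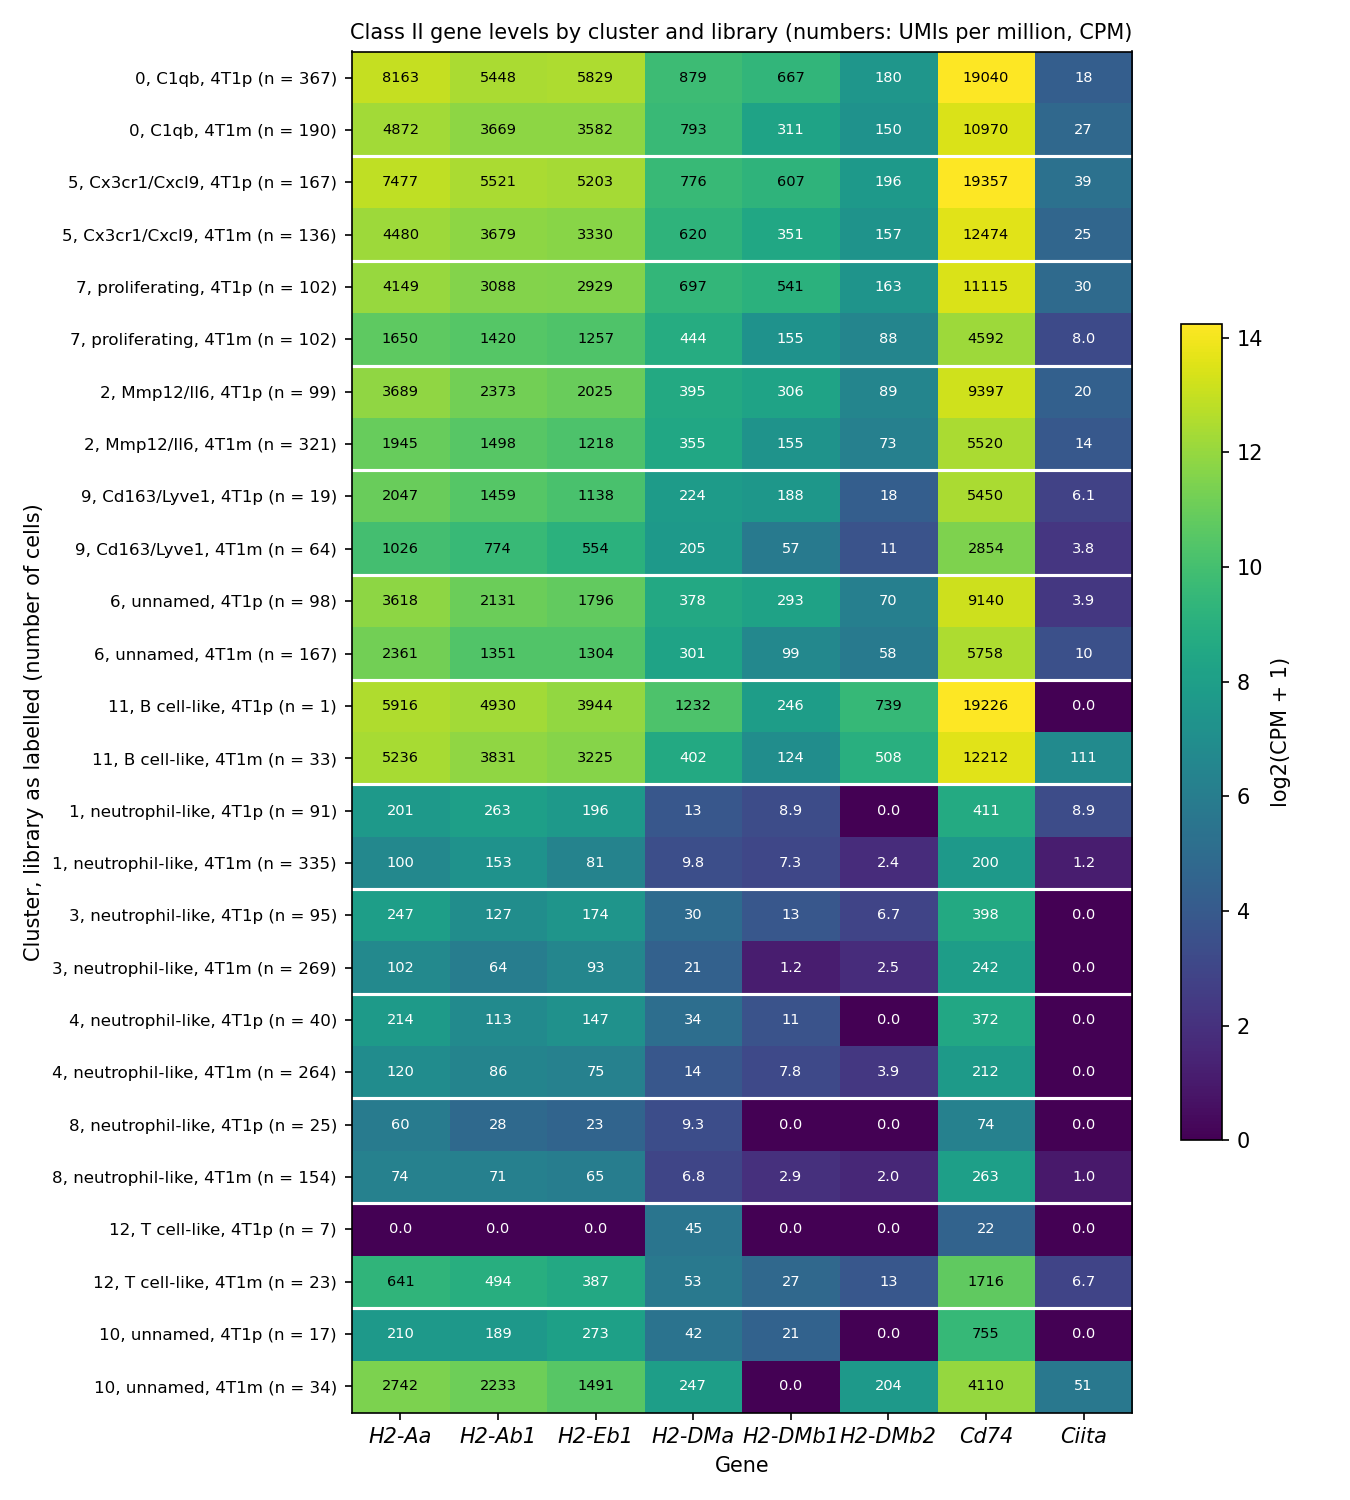
Level of each of the 8 genes (columns) in each cluster and library (rows, with the number of cells), in CPM (numbers) and as log2(CPM + 1) (colour). Cd74 reached 19357 CPM in cluster 5 of the library labelled 4T1p, and neutrophil-like clusters lay at or below 411 CPM of Cd74.

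Cd74, for the invariant chain, made up 49.6% of all member UMIs in macrophage-like cells and was the most abundant member in every macrophage-like cluster. In the library labelled 4T1p it had 19040 CPM in cluster 0, 19357 in cluster 5, 11115 in cluster 7, 9397 in cluster 2 and 5450 in cluster 9. In the library labelled 4T1m the same clusters had 10970, 12474, 4592, 5520 and 2854 CPM. The peptide-binding chains were also highest in clusters 0 and 5 and lowest in cluster 9 in each library, with H2-Aa from 2047 CPM in cluster 9 to 8163 in cluster 0 in the library labelled 4T1p, and from 1026 in cluster 9 to 4872 in cluster 0 in the other. H2-Aa made up 18.9% and H2-Eb1 12.8% of the member UMIs of macrophage-like cells. B cell-like cells had nearly the same division, with Cd74 at 47.8%, H2-Aa at 20.3% and H2-Ab1 at 14.9%. Their summed level was 25908 CPM (25138 to 26695), within the range of the macrophage-like clusters of the library labelled 4T1p. All but 1 of these cells came from the library labelled 4T1m, in which the highest macrophage-like cluster, cluster 5, had 25115 CPM.

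The H2-DM genes, whose product edits the peptides, were less abundant, and their 2 beta chain genes were used in different proportions in macrophage-like and B cell-like cells. H2-DMa had 523 CPM (509.9 to 537) in macrophage-like cells and 423 CPM (329 to 534) in B cell-like cells. H2-DMb1 had 324 CPM (314 to 335) and 127 CPM (78.5 to 194), and H2-DMb2 had 118 CPM (112 to 124) and 513 CPM (409.9 to 635). H2-DMb2 was thus 26.7% of the UMIs of both beta chain genes in macrophage-like cells (25.5 to 27.9, of 4999 UMIs) and 80.2% in B cell-like cells (71.3 to 87.3, of 106 UMIs). All but 1 of the B cell-like cells came from the library labelled 4T1m, in which the share was 80.4% against 31.6% (29.6 to 33.6) in its macrophage-like cells.

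The share of H2-DMb2 was higher in the library labelled 4T1m than in the other in each macrophage-like cluster. It was 21.3% (119 of 559 UMIs, upper bound 24.9%) and 32.5% (25.2 to 40.5) in cluster 0, in the order 4T1p and 4T1m. Cluster 5 had 24.5% (22.4 to 26.6) and 31.0% (27.9 to 34.2), and cluster 2 had 22.6% (18.9 to 26.7) and 32.1% (29.1 to 35.2). Cluster 7 had 23.1% (17.6 to 29.4) and 36.3% (26.4 to 47.0), and cluster 9, with 34 and 36 UMIs, had 8.82% (1.86 to 23.7) and 16.7% (6.37 to 32.8). The intervals did not overlap in clusters 0, 2 and 5. Both transcripts are close copies, with 94.7% identical bases over 1219 aligned positions of the longest coding transcripts and 76.1% over the last 400 bases, where the longest identical run was 28 bases. How reads matching both genes were treated was decided by the authors' counting, so the split between these genes is uncertain to that degree. Reads of these BALB/c mice were aligned to the mm10 reference, and the part of strain differences in the split was not tested.

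**Figure D2:**
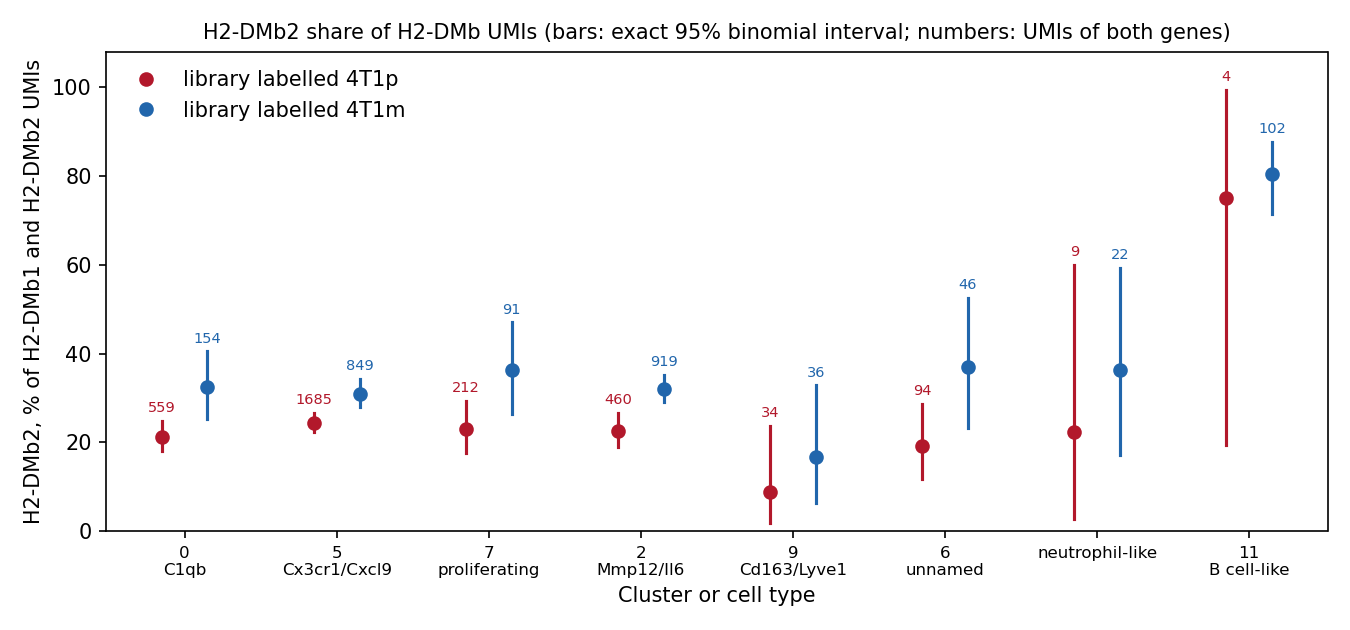
Share of H2-DMb2 among the UMIs of H2-DMb1 and H2-DMb2 (percent, points, with exact binomial 95% bars) by cluster or cell type and library, with the number of UMIs above each point. The B cell-like cluster lies at 80.4% in the library labelled 4T1m, above the range of 8.82% to 36.3% of the macrophage-like clusters in both libraries.

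Ciita, the coactivator gene, was the rarest member, with 238 UMIs and 21.0 CPM (18.5 to 23.9) in macrophage-like cells. B cell-like cells had 18 UMIs and 109 CPM (64.4 to 172), and neutrophil-like cells had 4 UMIs and 1.00 CPM (0.273 to 2.56). Among macrophage-like clusters, Ciita had 32.6 CPM (27.1 to 38.9) in cluster 5, 21.1 (13.1 to 32.3) in cluster 0, 17.8 (9.18 to 31.0) in cluster 7, 15.3 (12.1 to 19.0) in cluster 2 and, from 3 UMIs, 4.33 (0.894 to 12.7) in cluster 9. Neighbours in this order had overlapping intervals. A Ciita UMI was found in 10.3% of macrophage-like cells (161 of 1567, median 3130 UMIs) and in 0.314% of neutrophil-like cells (4 of 1273, median 2535 UMIs). When each cell was thinned to 1000 UMIs, dropping 368 and 105 cells with fewer, these shares were 1.33% (0.765 to 2.16) and 0.171% (0.0207 to 0.617).

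Macrophage-like cells with a Ciita UMI held more of the other 7 members than cells without one. In cluster 2 the other 7 members had 22614 CPM (22325 to 22905) in the 61 cells with a Ciita UMI and 9916 CPM (9821 to 10013) in the 359 cells without. In cluster 5 the levels were 41031 CPM (40688 to 41376) in 71 cells and 28448 CPM (28236 to 28660) in 232. Both libraries had this order in clusters 0, 2 and 5. Cells with a Ciita UMI were also deeper, at medians of 17468 against 10897 UMIs in cluster 2 and 19692 against 11157.5 in cluster 5, and the part of depth in the difference was not tested beyond thinning. Among 1000 UMIs per cell, the median number of UMIs of the other 7 members was 19 against 4 in cluster 2 and 39 against 28 in cluster 5. B cell-like cells with and without a Ciita UMI did not stand apart, at 25977 CPM (24769 to 27228) in 13 cells and 25679 CPM (24690 to 26698) in 21.

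**Figure D3:**
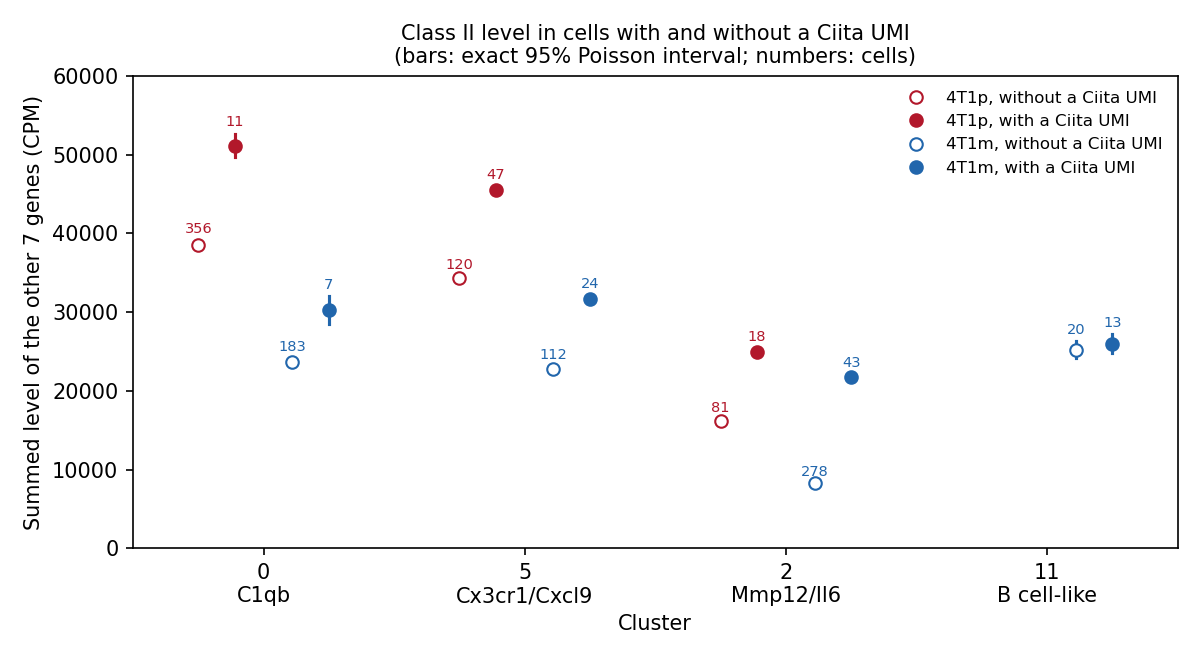
Summed level of the 7 members other than Ciita (CPM, with exact Poisson 95% bars) in cells with (filled) and without (open) a Ciita UMI, by cluster and library, with cell numbers above. In clusters 0, 5 and 2 the filled point lies above the open one of the same library, while in B cell-like cells both lie near 25977 and 25227 CPM.

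In neutrophil-like cells the class II members were at a small fraction of their level in macrophage-like cells. The 8 members had 804 CPM (744 to 868) in neutrophil-like cells of the library labelled 4T1p against 31585 CPM (31419 to 31752) in its macrophage-like cells, and 519 CPM (494 to 545) against 14431 CPM (14341 to 14520) in the library labelled 4T1m. The log2 ratio of neutrophil-like over macrophage-like cells was −5.19 (−5.25 to −5.13) for the sum, −5.30 within the library labelled 4T1p and −4.80 within the library labelled 4T1m. Single members lay between −5.95 for H2-DMb1 and −4.39 for Ciita (−6.28 to −3.02, from 4 UMIs). All 8 were lower by more than 1 on the log2 scale, where 54.3% of 9294 genes were. A Cd74 UMI was found in 31.1% of neutrophil-like cells and, after thinning, in 16.3% (14.2 to 18.5), against 84.4% (82.2 to 86.4) of thinned macrophage-like cells. The pooled neutrophil-like level moved with the library, as that of the macrophage-like cells did. Neutrophil-like cluster 8 had the other direction, with a log2 ratio of 4T1m over 4T1p of 1.32. Without the 4 cells with most member UMIs it was 0.11 (−0.46 to 0.72). Free RNA in the droplets was not measured, and its part in the neutrophil-like level was not tested.

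In clusters 8, 10 and 12 a few cells carried most of the member UMIs. Of 540 member UMIs in neutrophil-like cluster 8, led by Camp and Ngp, 38.9% lay in 1 cell, and without it the level was 269 CPM (240.4 to 299). Of 503 member UMIs in T cell-like cells, 97.2% lay in 4 of 30 cells, and the remaining 26 cells held 14 UMIs, or 96.6 CPM (52.8 to 162). In cluster 10, 67.0% of 1594 member UMIs lay in 1 cell of 21533 UMIs, which also held at least 3 of the 9 dendritic cell markers, 7 Ciita UMIs and 22 H2-DMb2 UMIs with 0 of H2-DMb1. Such dendritic cell marker combinations were found in 4 of 3220 cells, 3 in cluster 10 and 1 among T cell-like cells, and in 0 of 1567 macrophage-like cells. These 4 cells had 9259 to 21533 UMIs, whereas 872 of the macrophage-like cells had at most 5000. The 0 therefore sets no limit for those 872 cells and bears only on the 695 with over 5000 UMIs. Of the 4 cells, the other 3 held 288 and 10 member UMIs in cluster 10 and 182 among T cell-like cells, all without a Ciita UMI. Their H2-DMb1 and H2-DMb2 UMIs were 0 and 2, 0 and 0, and 1 and 0, so the values of the first cell are those of 1 cell.

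Class II levels also differed widely between cells of the same cluster. In cells thinned to 1000 UMIs, the 8 members had a median of 31 UMIs in cluster 0 (10th to 90th percentile 5 to 70) and 32 in cluster 5 (5 to 58). The median was 12 in cluster 7 (1 to 35.7), 6 in cluster 2 (0 to 29.8) and 2 in cluster 9 (0 to 23). No member UMI was left after thinning in 20.1% (83 of 413) of the cells of cluster 2 and 21.2% (17 of 80) of those of cluster 9, against 3.60% (10 of 278) in cluster 5 and 1.06% (3 of 284) in cluster 0. B cell-like cells were the most even, with a median of 28.5 and a 10th to 90th percentile of 17 to 37. Every thinned B cell-like cell had at least 15 member UMIs.

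**Figure D4:**
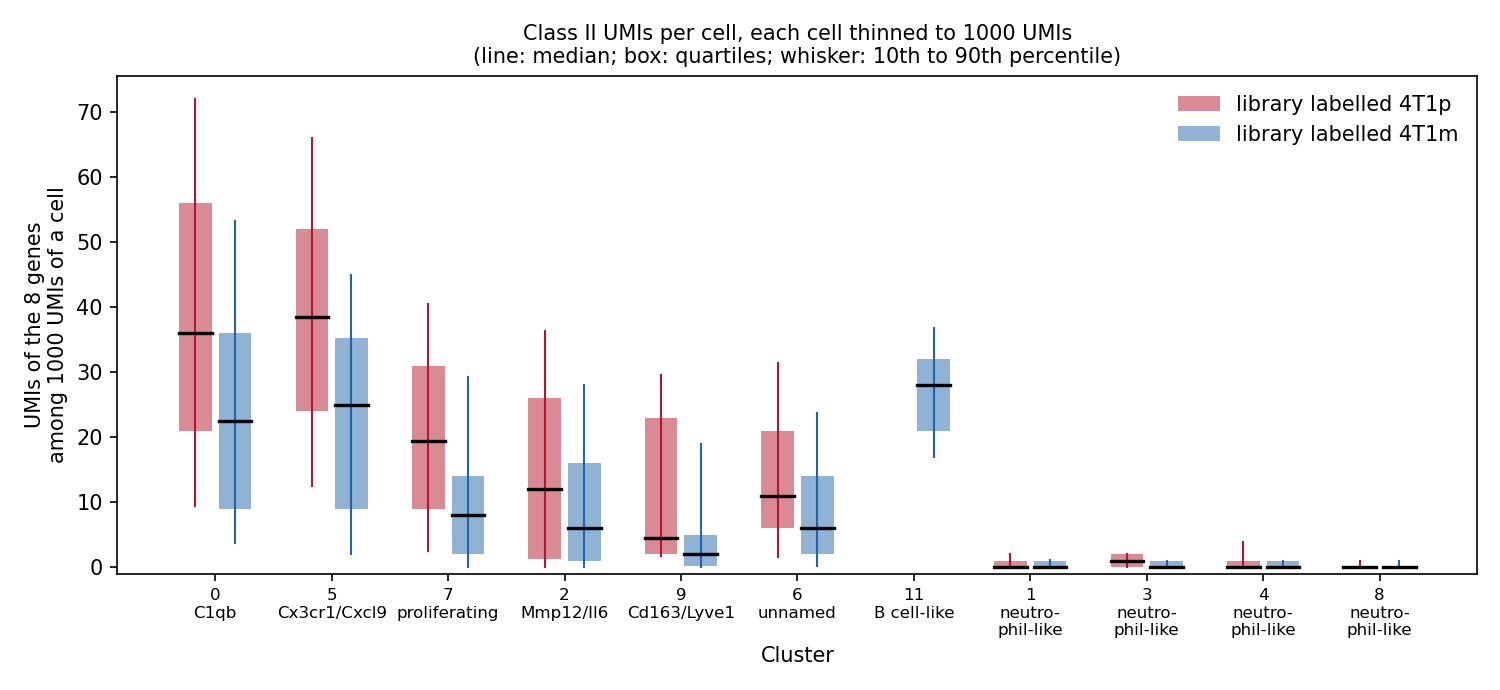
UMIs of the 8 members per cell after thinning each cell to 1000 UMIs, by cluster and library (line: median, box: quartiles, whisker: 10th to 90th percentile). Medians in the library labelled 4T1p were 36 in cluster 0 and 38.5 in cluster 5, those in the library labelled 4T1m were 22.5 and 25, and neutrophil-like medians were 0 or 1.

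Across cells of cluster 5 (278 thinned cells), the peptide-binding chains and Cd74 varied together, with Pearson r between 0.73 for H2-Ab1 with H2-Eb1 and 0.79 for H2-Aa with Cd74. These values pool both libraries, whose levels differ, and within each library r lay between 0.68 and 0.75 (4T1p, 146 cells) and between 0.74 and 0.78 (4T1m, 132 cells). Cells of a library share its chemistry and free RNA, and thinning gave all cells 1 depth. Pairs with H2-DMa, H2-DMb1 or H2-DMb2, which have few UMIs per thinned cell, had r between 0.09 and 0.36. In cluster 2 (413 cells) the r of the peptide-binding chains and Cd74 lay between 0.72 and 0.74.

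The comparison of the tumors addressed whether macrophage-like cells carried different class II levels in the responding and the resistant line. The study names MHC class II genes among those found in monocytic cells enriched in 4T1m. That comparison was between regions chosen by differential abundance and not between all macrophage-like cells. The study ties these genes to monocytic progenitors, which it reports as more frequent in 4T1m. Here all 8 members were lower in the library labelled 4T1m, the other direction, by the labels as the files give them. The median UMIs of each library are those the methods give for the other tumor, and with exchanged labels the direction would turn. Clusters 0 and 5 held 367 and 167 cells in the library labelled 4T1p and 190 and 136 in the other. In all macrophage-like cells the summed level was 31585 CPM in the library labelled 4T1p and 14431 CPM in the library labelled 4T1m, a log2 ratio of 4T1m over 4T1p of −1.13 (−1.14 to −1.12). Cd74 had 15577 and 7209 CPM, a log2 ratio of −1.11 (−1.13 to −1.09). Among the peptide-binding chains, H2-Aa had 6142 and 2612 CPM (log2 ratio −1.23), H2-Eb1 had 4145 and 1794 CPM (−1.21) and H2-Ab1 had 4355 and 2070 CPM (−1.07). H2-DMb1 had 516 and 203 CPM, the lowest log2 ratio of the members at −1.35 (−1.45 to −1.25), while H2-DMb2 had 157 and 93.5 CPM (−0.74, −0.90 to −0.59) and H2-DMa 664 and 434 CPM (−0.62, −0.69 to −0.54). Ciita had 28.9 and 16.0 CPM, a log2 ratio of −0.85 (−1.23 to −0.47). A log2 ratio of −1 or below was seen for 5 of the 8 members and for 1.97% of 8876 genes with at least 50 UMIs, and the median log2 ratio of these genes was 0.11.

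Cluster makeup differed between the libraries, and the ratio within clusters was closer to 0 than the pooled one in 4 of 5. The log2 ratio of the summed level was −0.64 (−0.66 to −0.62) in cluster 5, −0.72 (−0.76 to −0.69) in cluster 0, −0.76 (−0.79 to −0.74) in cluster 2, −0.94 (−1.03 to −0.85) in cluster 9 and −1.24 (−1.30 to −1.18) in cluster 7. The mean over the 5 clusters was −0.86. In cluster 9, with 19 cells labelled 4T1p, the ratio was −0.65 (−0.75 to −0.56) without the 1 cell with most member UMIs and −1.07 without the 4 such cells. In cluster 7 the ratio was −1.15 (−1.21 to −1.09) without 1 such cell. Without 4 it was −1.06 (−1.12 to −0.99), closer to 0 than the pooled ratio. H2-Aa, H2-Ab1, H2-Eb1, H2-DMa, H2-DMb1, H2-DMb2 and Cd74 had a negative log2 ratio in 5 of 5 clusters and Ciita in 4 of 5, a count that includes H2-DMb2 in cluster 9 and Ciita in clusters 0, 7 and 9, each with under 50 UMIs. The share of all genes with a negative ratio in 5 of 5 clusters is not reported here. The median ratio of all tested genes was 0.06 in cluster 0, 0.13 in cluster 2, 0.16 in cluster 5, 0.03 in cluster 7 and 0.02 in cluster 9. For H2-DMa the intervals of clusters 0, 2 and 9 reached 0, with values of −0.15, −0.15 and −0.13, and for H2-DMb2 those of the same clusters did, with values of −0.27, −0.28 and −0.67. For Ciita only the interval of cluster 5 lay below 0 (−0.67, −1.25 to −0.11). For H2-DMb1 the log2 ratio was between −1.80 in cluster 7 and −0.79 in cluster 5, lower than that of H2-DMa, Cd74 and the peptide-binding chains in each cluster, although its interval overlapped that of H2-Aa in 5 of 5. Unnamed cluster 6 had 17430 and 11243 CPM of the sum and a negative ratio for Cd74 (−0.67) and H2-DMb1 (−1.56) too. The members that passed −1 within clusters were 0 of 8 in clusters 2 and 5 (1.12% and 1.52% of genes), 1 of 7 tested in cluster 0 (1.96%), 2 of 6 in cluster 9 (2.48%) and 5 of 7 in cluster 7 (2.96%).

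**Figure D5:**
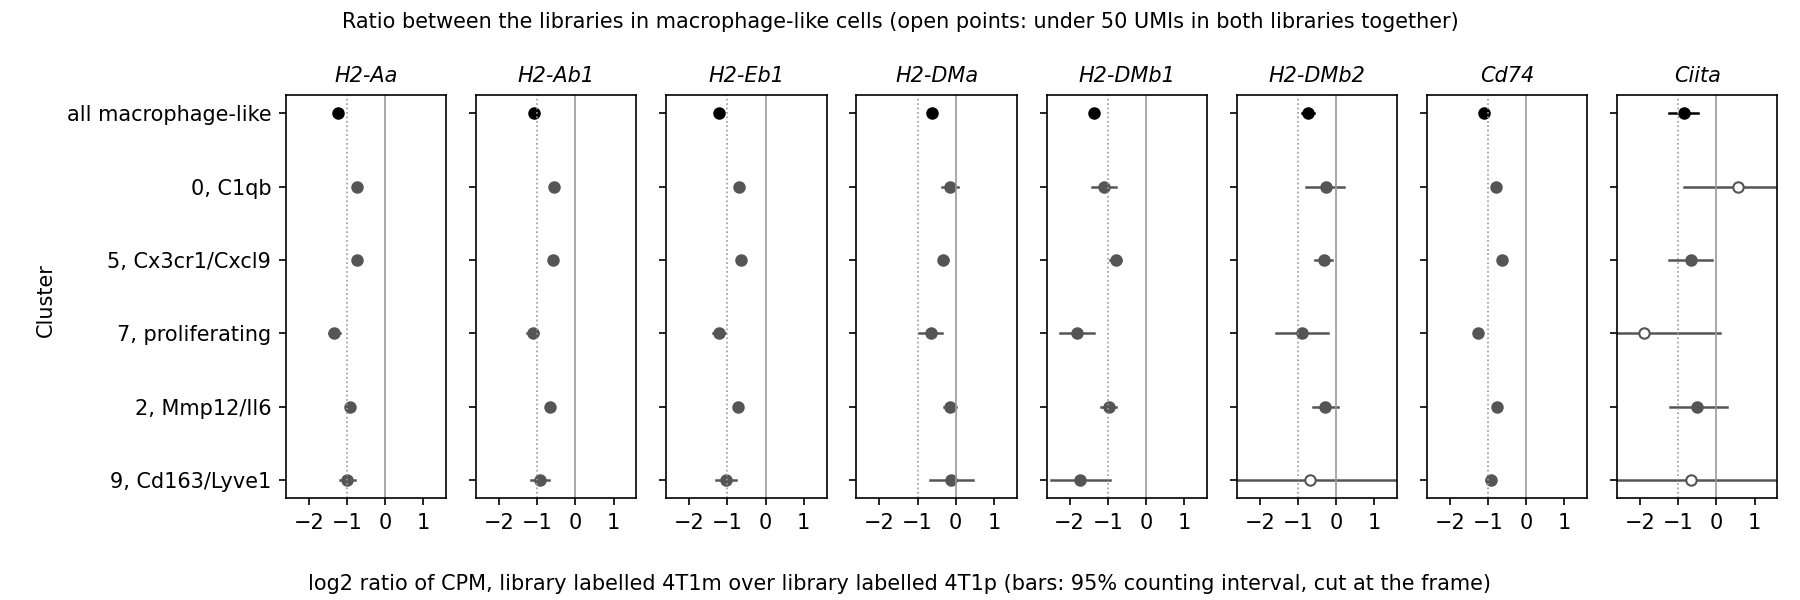
Log2 ratio of CPM of the library labelled 4T1m over the library labelled 4T1p for each member (panels) in all macrophage-like cells and in each macrophage-like cluster, with 95% counting intervals. Solid line 0, dotted line −1. All points but that of Ciita in cluster 0 (0.57, −0.86 to 1.94, 21 UMIs) lie below 0.

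Other measures moved with the library in the same cells. The summed level of 10 macrophage markers in macrophage-like cells was 27932 CPM in the library labelled 4T1p and 16073 CPM in the other. Within clusters it was 36710 and 27256 CPM in cluster 5 and 12561 and 10505 CPM in cluster 2. In clusters 0, 7 and 9 it was also lower in the library labelled 4T1m. The summed level of 8 neutrophil markers was 1000.4 and 1451 CPM, and that of 9 dendritic cell markers was 32.1 and 17.2 CPM, with Flt3, Zbtb46 and Siglech at 0 in the library labelled 4T1p and Siglech at 0 in the other. Batf3 was the most abundant of these 9 in clusters 0, 5 and 7, at 41.2, 25.7 and 19.2 CPM over both libraries. The dendritic cell sum thus rests mainly on 1 gene. The median mitochondrial share was 2.29% and 3.92% in cluster 0 and 2.10% and 4.28% in cluster 7, but 5.07% and 5.60% in cluster 5. The part of these in the class II ratio was not tested. In cells over 5000 UMIs, a limit set after seeing the data, the log2 ratio of the summed level was −1.14.

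The known partners of the members in antigen presentation were set beside them. Of 16 fixed genes of the pathway, 15 were analysed and 12 had at least 50 UMIs in macrophage-like cells. None had a log2 ratio of −1 or below (1.97% of all genes), 1 had a ratio of 1 or above (7.4% of all genes), and their median was −0.12 against 0.11 for all genes. Ctss, the endosomal protease that trims the invariant chain, had 2825 and 2138 CPM (log2 ratio −0.40) in the libraries labelled 4T1p and 4T1m, and Ifi30, a thiol reductase of antigen processing, had 709 and 519 CPM (−0.45). Ctsb (−0.25), Lgmn (−0.25), Ctsd (0.00) and Ctsl (0.33), further endosomal proteases, lay closer to 0. Sppl2a, which removes the last fragment of the invariant chain from the membrane, had 145 and 223 CPM (0.63, 0.49 to 0.76). The costimulatory ligand genes had the other direction, with Cd86 at 146 and 195 CPM (0.42, 0.28 to 0.56) and Cd80 at 13.9 and 33.7 CPM (1.28, 0.86 to 1.71), the gene with a pooled ratio above 1. Cd80 had 191 UMIs in cluster 2 and 1 in cluster 0, clusters whose cell numbers differed between the libraries. Pathway genes tested within clusters were 9 in cluster 0, 12 in clusters 2 and 5, and 8 in clusters 7 and 9. None of them had a ratio of −1 or below or of 1 or above. Of all genes, 1.12% (cluster 2) to 2.96% (cluster 7) had −1 or below, so a count of 0 is near that share. For 1 or above the share within clusters is not reported here. The highest ratios of pathway genes were 0.88 in cluster 0, 0.99 in cluster 2, 0.88 in cluster 5, 0.40 in cluster 7 and 0.29 in cluster 9. The part of cluster makeup in the pooled ratios was not tested. March1, a ligase that marks class II and CD86 for degradation, had 59.7 and 47.2 CPM (−0.34), its homolog March8 had 17.3 and 25.9 CPM (0.58), and the costimulatory receptor gene Cd40 had 46.0 and 38.6 CPM (−0.26, −0.52 to 0.02).

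H2-Oa and H2-Ob, whose product inhibits H2-DM, and H2-Eb2 were highest in B cell-like cells, the named cell type in which H2-DMb2 was the main beta chain gene. H2-Oa had 169 CPM, H2-Ob 266 CPM and H2-Eb2 42.3 CPM there, against 1.24, 2.30 and 0.619 CPM in macrophage-like cells. T cell-like cells had 20.6 CPM of H2-Oa from 4 UMIs and 10.3 CPM of H2-Ob from 2 UMIs.

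Among 15 fixed regulators, all tested in the pooled macrophage-like cells, 0 had a log2 ratio of −1 or below (1.97% of all genes). A ratio of 1 or above was seen for 1 (7.4%), and the median was 0.32. Within clusters, the median of those tested was 0.14 in cluster 0, 0.06 in cluster 2 and 0.26 in cluster 5. It was −0.28 in cluster 7 and −0.22 in cluster 9. Single ratios reached −1.99 in cluster 7, where 2 of 6 tested had −1 or below (2.96% of genes), and 1.73 in cluster 9. Within clusters, 1 or above was seen for 2 of 13 in cluster 5, 1 of 13 in cluster 2 and 1 of 5 in cluster 9. The share of all genes at 1 or above within single clusters is not reported here. In the pooled cells, Jak2, a kinase of the interferon gamma receptor, was the one above 1, with 41.3 and 95.5 CPM (1.21, 0.97 to 1.46). Jak1 (0.51) and the receptor gene Ifngr1 (0.39) were above 0 and Ifngr2 (−0.01) was not. The interferon-inducible transcription factor genes Irf1 (−0.28) and Irf8 (−0.33) were below 0. The genes of the promoter complex lay on either side, with Rfx5 at 0.40, Rfxap at −0.03, Rfxank at −0.62, Nfya at 0.59, Nfyb at 0.52, Nfyc at 0.32 and Creb1 at 0.34, and the intervals of Rfx5, Rfxap, Rfxank, Nfyc and Creb1 included 0. Spi1, the myeloid transcription factor, was at −0.21.

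The genes whose level over groups was most like the summed members were sought among 3855 genes with at least 500 UMIs, by Pearson r of log2(CPM + 10) over 22 combinations of cluster and library with at least 20 cells. These were Ly86 (r = 0.97), Ifi30 (0.96), Mrpl23 (0.95), Plekho1 (0.95), Rpl7a (0.95), Ppib (0.95), Nt5c (0.95) and H2-M3 (0.94). The groups share 2 libraries and fall mainly into cells rich and poor in class II, which sets high values of r. Ly86, which encodes the partner of a Toll-like receptor homolog, had 307 CPM in macrophage-like, 8.76 in neutrophil-like and 145 in B cell-like cells. Among the members themselves r with the sum, of which each is part, was between 0.79 for Ciita and 1.00 for Cd74.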

How the data were processed

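The deposited values are raw UMI counts, which the authors made from the reads with Cell Ranger on mm10 (GRCm38). The matrices hold only barcodes called as cells, before any quality limit. Their headers name software version 3.1.0, which is not the Cell Ranger version named in the study's methods. From these counts, barcodes with 250 to 5000 genes, at most 27000 UMIs and at most 12.5% mitochondrial UMIs were kept. Both libraries were merged and normalized with SCTransform (sctransform 0.4.2, Seurat 5.3.0, R 4.3.3; 3000 variable genes without the 8 members, mitochondrial share regressed out), and clustered (11 principal components, Louvain, resolution 0.8). A cluster took the lineage whose markers had the higher relative share of cells with a UMI, and stayed unnamed where another lineage came first or where the cluster was shallow against its own library and led by no marker of that lineage. Doublets were kept; Scrublet (scanpy 1.11.5) scores served for an alternative. CPM, shares, ratios and thinning (Python 3.11.15, numpy 2.4.6, scipy 1.17.1, pandas 2.3.3) were computed from summed counts, and calls on ratios were limited to genes with at least 50 UMIs in both libraries together. Interval coverage was checked on simulated Poisson counts, which follow the model of the intervals, so the check says nothing of spread between cells. Places are from GENCODE vM21. Named genes are the members, the fixed pathway, regulator and marker lists and the 8 genes most alike. Members and lists were chosen with earlier results of these data known. H2-Ea-ps was not analysed here, and 1 gene of the regulator list is counted but not reported here. Figures used matplotlib 3.10.9.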

Additional observations from a re-analysis of the deposited data

Results flagged for a closer look

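Class II UMIs were also present in barcodes that the quality limits removed, which no comparison above used. Barcodes above the UMI limit had 22180 CPM of the 8 members in the library labelled 4T1p (56 barcodes) and 7779 CPM in the library labelled 4T1m (56 barcodes). Barcodes above the mitochondrial limit had 9747 CPM (443 barcodes) and 5692 CPM (560 barcodes). Barcodes under the gene minimum had 1193 CPM (170 barcodes) and 330.4 CPM (95 barcodes). In each of these sets the level was lower in the library labelled 4T1m. These barcodes were given no cell type, so each level mixes cell types. Among kept cells, 754 of 1128 were macrophage-like in the library labelled 4T1p and 813 of 2092 in the other. The part of the cell mix in these levels was not tested.

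In 3 clusters the summed members had a higher level in the library labelled 4T1m, against the direction in macrophage-like cells, and this difference between clusters was not tested, with 1 library on each side. The log2 ratio was 1.32 in neutrophil-like cluster 8, 2.90 in unnamed cluster 10 and 5.64 in T cell-like cluster 12. Few cells carried these values. Without the 1 cell with most member UMIs the ratios were 0.55 (0.08 to 1.05) in cluster 8, 1.40 (1.03 to 1.78) in cluster 10 and 5.09 (3.53 to 7.38) in cluster 12, and without the 4 such cells 0.11 (−0.46 to 0.72), 0.89 (0.29 to 1.53) and 0.72 (−1.20 to 3.20). These cells were chosen by their member UMIs after the data were seen, so the values without them are a description.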

How the results depend on the processing

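No paired analysis was possible because each tumor type has 1 library and no result comes from a test. With no replicates, a value is called moved when it leaves its own counting interval, which is narrow at this depth. No setting turned a direction. The 5 main results are given in the order summed level in macrophage-like cells (21086 CPM), log2 ratio of neutrophil-like over macrophage-like cells (−5.19), log2 ratio of 4T1m over 4T1p in macrophage-like cells (−1.13), the same in the Cx3cr1 and Cxcl9 state (−0.64) and share of macrophage-like cells with a Ciita UMI (10.3%), and values that stayed within their interval are left out. With a Ptprc UMI required the level was 20731 CPM, the neutrophil-like ratio −5.29 and the Ciita share 17.3%. Without the highest doublet scores the level was 21195 CPM and the ratios −5.50, −1.11 and −0.62. With at most 5% mitochondrial UMIs the values were 18987 CPM, −5.31, −1.34, −0.88 and 6.69%. Other ways of clustering also changed which cells were named macrophage-like, 1567 in the main setting. With the members kept among the clustering genes (1142 such cells) the level was 21956 CPM, the ratios between libraries −1.14 and −0.56, and the share 12.9%. At resolution 0.5 (1682 such cells) they were 20878 CPM, −1.10 and −0.58. With log-normalization before clustering (1248 such cells) they were 20783 CPM, −1.12, −0.78 and 13.1%. The mean over cells of each cell's CPM gave 22609 CPM, −5.12, −1.06 and −0.54. A denominator without mitochondrial and ribosomal protein genes gave 25919 CPM, −5.39, −1.18 and −0.69. Thinning to 1000 UMIs gave 21888 CPM, −5.11, −1.11, −0.66 and 1.33%. Cells over 5000 UMIs only, a setting added after the data were seen, gave 20525 CPM, −5.32 and 21.4%. The Ciita share thus ranged from 1.33% to 21.4% with the depth of the cells counted, so it is a share of cells with a UMI and not of cells that express Ciita. Depth also limits H2-DMb2 and Ciita in clusters 7 and 9 and in neutrophil-like cells, where a few UMIs carry the ratio.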
